A study of Mus musculus with 8 samples.

Results

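The 8 genes described here encode secreted and surface-bound signals of CD8+ T cells, and were followed through a single-cell CRISPR screen: Ifng, Tnf, Il2, Csf2, Lta, Ltb, Fasl and Tnfsf8. They were taken by name from the gene expression features with no threshold on a measured value, and are 8 of 32285 genes. The cells were CD90.1+ OT-I T cells, which carry a receptor for an ovalbumin peptide and a Cas9 knock-in, had been transduced with a library of guides against metabolic genes, and were sorted from orthotopic KPC_OVA pancreatic tumours 7 days after transfer into tumour-bearing mice. KPC_OVA is a mouse pancreatic cancer cell line that makes ovalbumin. There were 3 libraries from mice given anti-PD-1 and 1 library from mice given IgG, each with a matching guide library, and every group shared the Cas9 knock-in, the OT-I receptor, the guides and the tumour line. Treatment began on the day of transfer. The labels do not say whether the libraries came from separate mice, so p-values measure only the spread between these libraries, which may be technical.

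Interferon-γ (Ifng), tumour necrosis factor (Tnf), interleukin-2 (Il2) and GM-CSF (Csf2) are cytokines that CD8+ T cells make within hours of meeting antigen, and their messenger RNAs are short-lived. Lymphotoxin-α (Lta) and lymphotoxin-β (Ltb) belong to the TNF family: the first is secreted or joins the second in a trimer on the cell surface that signals through the lymphotoxin-β receptor. Fas ligand (Fasl) triggers apoptosis in cells that carry Fas, and Tnfsf8 (CD30 ligand) binds CD30 on other lymphocytes.

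The 8 genes lie at 6 places in the mouse genome (GRCm38). Ltb (chr17:35194439-35196320, plus strand), Tnf (chr17:35199381-35202007, minus strand) and Lta (chr17:35203165-35205351, minus strand) are neighbours within 10913 bp, with gaps of 3060 and 1157 bp between them. Ifng spans chr10:118441046-118445892 on the plus strand, and Fasl chr1:161780689-161788495, Il2 chr3:37120523-37125959, Csf2 chr11:54247271-54249667 and Tnfsf8 chr4:63831308-63861347 are on the minus strand. The annotation places Adad1 over part of Il2 and Gm12223 over part of Csf2, both on the opposite strand, and Gm49751 over Ifng on the same strand; how the counting treated strand was not given in the sources used here.

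The 250 bases before the start of Ifng, Tnf and Il2 are shown because these cytokine genes had large differences between cells with high and low antigen response scores in what follows, and those of Fasl because its difference there was small. The RefSeq start of Il2 lies a few bases inside the gene as placed above. They are RefSeq sequence of build GRCm38.p6, from 5′ to 3′ on the strand of the gene, with 2 motifs in capitals: the core that NFAT factors bind, on either strand, and the TATA box. The windows are chr10:118440796-118441045 for Ifng, chr17:35202008-35202257 for Tnf, chr3:37125955-37126204 for Il2 and chr1:161788496-161788745 for Fasl.
Ifng: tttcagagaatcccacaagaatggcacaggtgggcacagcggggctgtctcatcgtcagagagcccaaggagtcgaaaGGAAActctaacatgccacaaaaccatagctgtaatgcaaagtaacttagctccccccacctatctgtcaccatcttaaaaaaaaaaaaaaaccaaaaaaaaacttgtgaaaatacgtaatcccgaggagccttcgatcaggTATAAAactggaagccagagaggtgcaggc
Tnf: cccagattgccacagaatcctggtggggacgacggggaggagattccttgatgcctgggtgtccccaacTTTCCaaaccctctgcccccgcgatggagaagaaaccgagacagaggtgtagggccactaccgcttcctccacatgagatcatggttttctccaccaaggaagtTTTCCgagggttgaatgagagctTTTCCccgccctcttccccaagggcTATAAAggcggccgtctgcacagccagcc
Il2: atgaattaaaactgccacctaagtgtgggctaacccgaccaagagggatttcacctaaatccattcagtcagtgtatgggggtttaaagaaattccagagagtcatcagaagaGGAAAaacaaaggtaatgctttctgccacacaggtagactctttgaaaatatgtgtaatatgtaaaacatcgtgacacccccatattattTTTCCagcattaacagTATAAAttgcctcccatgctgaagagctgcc
Fasl: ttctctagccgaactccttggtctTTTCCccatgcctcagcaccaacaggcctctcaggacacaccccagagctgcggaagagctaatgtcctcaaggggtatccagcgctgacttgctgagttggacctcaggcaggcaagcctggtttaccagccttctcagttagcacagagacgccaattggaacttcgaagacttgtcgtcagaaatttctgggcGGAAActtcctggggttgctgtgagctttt

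The NFAT core, GGAAA on one strand or the other, stood in the window of all 8 genes, but also in 55.6% of the 32851 mouse promoters of this length. It lay at position -172 of Ifng, at -181, -77 and -54 of Tnf, at -137 and -47 of Il2 and at -226 and -30 of Fasl, counted from the start of the gene. The TATA box, TATAAA, stood at -30 of Ifng, -29 of Tnf, -31 of Il2 and -167 of Lta, and 12.4% of all promoters held it. It was absent from the other 4 windows. These include Csf2, which is not shown above though its antigen response difference was also large. The NF-κB motif (GGG, any 2 bases, then TTTCC) was found in the Ltb window alone, at -87, where it overlaps the GGAAA of that gene, and in 1.41% of promoters. The AP-1 motif TGANTCA and the T-box motif GGTGTGA, searched on both strands like the others, were in none of the 8 windows, against 6.75% and 3.33% of all promoters. These matches describe letters, not bound sites.

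In all, 23059 of 56359 cell barcodes carried a single guide and passed the limits on UMIs (unique molecular identifiers, each a counted RNA molecule) and mitochondrial share. Anti-PD-1 replicates 1, 2 and 3 held 2535, 2597 and 6432 of these cells and the IgG library 11495, with medians of 16829, 16325, 12084 and 6329 UMIs a cell, so depth per cell differed between libraries and is set equal below wherever shares of cells are compared. The 6 T cell identity genes (Cd3d, Cd3e, Cd3g, Cd8a, Cd8b1 and Trac) summed to 5825 to 6377 CPM (the UMIs of a gene over all UMIs of the kept cells, scaled to a total of 1e6), and at least 98.1% of the cells of every library had 10 or more of their UMIs. Markers of other cell types reached 10 UMIs in 96 cells. Anti-PD-1 replicates 1 and 2 share a name in their titles and stood apart from replicate 3 in several of the 8 genes. Any 2 libraries shared 3 to 18 barcodes.

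The 8 genes differed widely in level. Levels are set side by side as UMIs of 3′ ends, which do not scale with transcript length. Ifng was at 441, 630 and 417 CPM in the anti-PD-1 libraries and at 471 CPM in the IgG library, in the same unit. Ltb was at 297, 293, 462 and 540 CPM, in the same order of libraries. Fasl followed with 41.2, 42.5, 82.2 and 78.0 CPM. These 3 genes were the most abundant of the 8 in every library, and only Ifng and Ltb changed places between libraries.

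Tnf, the next in line, was at 9.11, 9.55, 32.0 and 26.7 CPM, so anti-PD-1 replicate 3 and IgG lay near each other and the other pair of anti-PD-1 libraries well below them. Lta was at 5.94, 6.0, 8.02 and 15.2 CPM and Tnfsf8 at 4.63, 5.27, 5.24 and 13.4 CPM. For both genes the IgG library was above every anti-PD-1 library. Il2 was at 3.01, 9.40, 4.47 and 4.66 CPM, with the highest value in anti-PD-1 replicate 2, where 1 cell held 175 of its 453 UMIs. Csf2 was the lowest, at 0.594, 0.519, 1.69 and 3.57 CPM, and in IgG 1 cell held 90 of 293 UMIs. Within each library Tnf was above Lta and Lta above Tnfsf8, although the ranges over the libraries overlapped. Il2 was below Tnfsf8 in 3 libraries and above it in anti-PD-1 replicate 2.

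**Figure D1:**
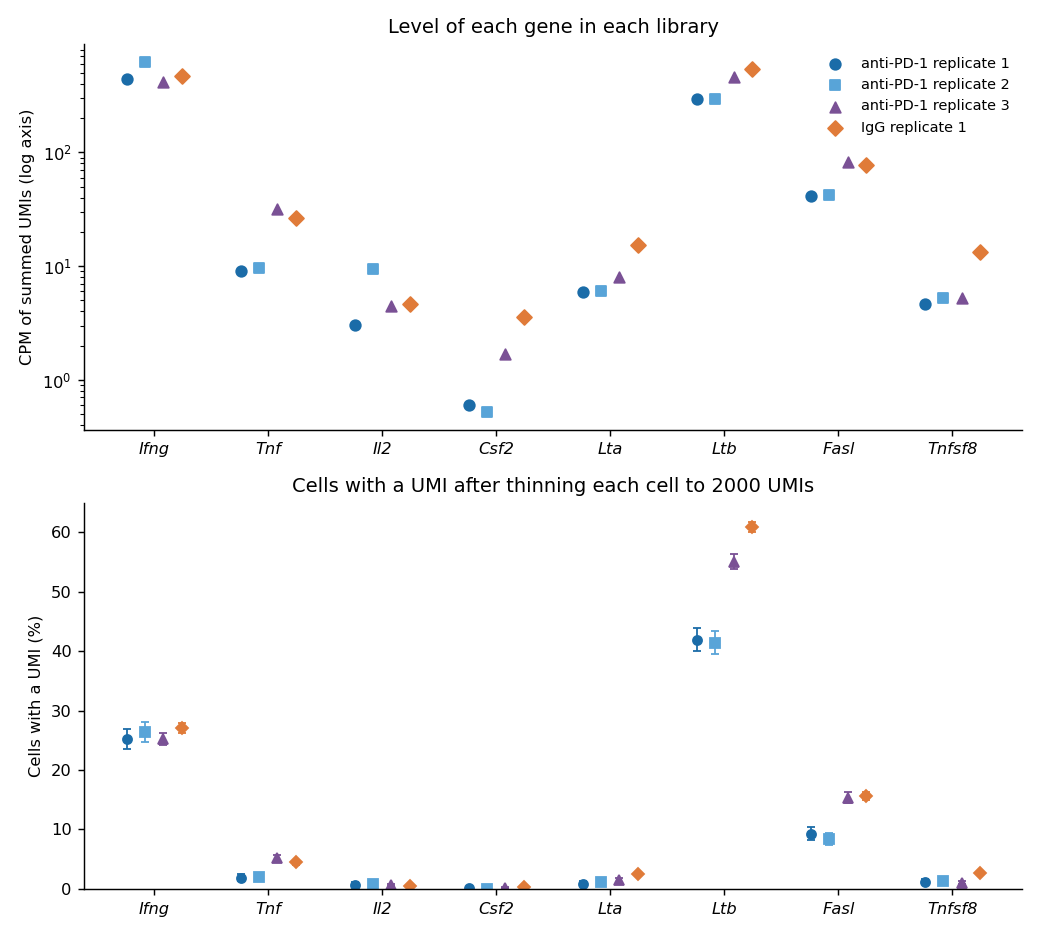
Top: CPM of summed UMIs of each gene in each of the 4 libraries, on a log axis. Bottom: percent of cells with at least 1 UMI after each cell was thinned to 2000 UMIs, with 95% exact binomial intervals that cover counting error only. Ifng and Ltb lie at 293 CPM or above in every library, and Csf2 at 3.57 CPM or below.

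The genes differed as much in how their UMIs were spread over cells. With every cell thinned to 2000 UMIs, which left out 163 shallower IgG cells, Ifng was found in 25.2%, 26.4% and 25.2% of the anti-PD-1 cells and in 27.1% of the IgG cells, whereas Ltb was found in 41.9%, 41.4%, 55.1% and 60.9%. Without thinning, these shares were 48.8% to 66.5% for Ifng and 87.2% to 92.9% for Ltb. At similar CPM, then, Ltb RNA was in more cells than Ifng RNA. The 1% of cells with the most Ifng held 39.6% to 50.0% of all Ifng UMIs, against 4.99% to 5.53% for Ltb and 6.13% to 7.55% for Fasl. Single cells reached 1078, 2174, 786 and 672 UMIs of Ifng in the 4 libraries, while no cell held more than 77 UMIs of Ltb or 10 of Fasl.

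Fasl was found in 9.27%, 8.36%, 15.3% and 15.6% of the thinned cells and Tnf in 1.85%, 1.93%, 5.16% and 4.45%. For both, anti-PD-1 replicate 3 and IgG lay above the other pair of libraries. Lta was found in 0.828% to 2.52% of the cells, Tnfsf8 in 1.01% to 2.66%, Il2 in 0.512% to 0.809% and Csf2 in 0.0385% to 0.344%. The top 1% of cells held every Csf2 UMI, as they must when 0.347% to 0.974% of the unthinned cells had any. They held 21.8% to 84.9% of the Il2 UMIs, 24.9% to 30.9% of the Tnf UMIs, 28.6% to 38.0% of the Lta UMIs and 28.9% to 53.1% of the Tnfsf8 UMIs. Sparseness alone raises such shares: the lowest for Il2 came from anti-PD-1 replicate 1, with 147 UMIs in 140 cells. Free RNA could give single UMIs in cells that do not express a gene, and barcodes led by markers of other cell types were too few to measure it: 3 led by B or plasma cell markers had no UMI of Ifng, Tnf, Il2, Csf2, Lta, Fasl or Tnfsf8 at a median of 1514 UMIs, and 2 of the 3 had a UMI of Ltb, which B cells express.

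Which of the 8 were found in the same cells was asked next, in cells thinned to 2000 UMIs. No UMI of any of the 8 was left in 22.7% to 37.8% of the cells, 1 gene in 45.3% to 47.7% and 2 genes in 14.6% to 23.4%; the most in any cell was 6. Of the 28 pairs of genes, 17 were seen together in at least 1 cell of every library, and 9 of these 17 had a log2 odds ratio above 0 in all 4 libraries. Each of the other 11 pairs held at least 1 of the sparse genes Csf2, Il2, Lta and Tnfsf8. Asking for a cell of both in every library favours pairs found together, so these counts are partly set by that rule. Among the pairs left out, Fasl and Tnfsf8 were together in 51 cells, against 62.5 if independent, with a log2 odds ratio of -0.90 ± 1.32 (SD). Tnf and Lta were together in 43 cells against 18.5, at 1.34 ± 0.81.

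Ifng and Tnf were found together in 450 cells, against 245 if each library's cells had drawn the genes independently, with a log2 odds ratio of 1.34 ± 0.48 (SD, n = 4 libraries). Tnf and Il2 had the highest value of the 17, 2.34 ± 0.57, though from 21 cells against 5.33. Ifng and Il2 were at 1.05 ± 0.26 (57 cells), but at 0.13 ± 0.52 when cells were thinned to 4000 UMIs, above 0 in 3 of 4 libraries, and above 0 in 1 of 4 libraries in nontargeting cells. Ifng and Csf2 were at 1.79 ± 0.88 (29 cells against 15.6). The highest value, 3.06, came from anti-PD-1 replicate 2, where 1 thinned cell held Csf2, and so depends on the 0.5 added to each count. With cells thinned to 4000 UMIs the pair was at 1.67 ± 1.87 (43 cells against 38.2), above 0 in 3 of 4 libraries. Ifng and Lta were at 0.81 ± 0.18 (156 cells), but at 0.26 ± 0.81 with cells thinned to 1000 UMIs, above 0 in 2 of 4 libraries. The 2 chains of the lymphotoxin trimer, Lta and Ltb, were found together in 280 cells against 246, at 0.53 ± 0.10. Ltb and Fasl (0.28 ± 0.21), Tnf and Ltb (0.28 ± 0.13) and Tnf and Tnfsf8 (1.11 ± 0.85) completed the 9 pairs. Of the 9, Ifng with Tnf and Tnf with Il2 stayed above 0 in all 4 libraries at 1000 and 4000 UMIs and in nontargeting cells. For Tnf with Il2 this rests in part on the 0.5 added to each count, since 11 cells held both at 1000 UMIs and 2 among nontargeting cells, with 0 in some libraries. By contrast Ifng and Ltb were at -0.14 ± 0.13, below 0 in 3 of 4 libraries, and Ifng and Tnfsf8 at -0.13 ± 0.55. No test was made over cells, which share a library.

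**Figure D2:**
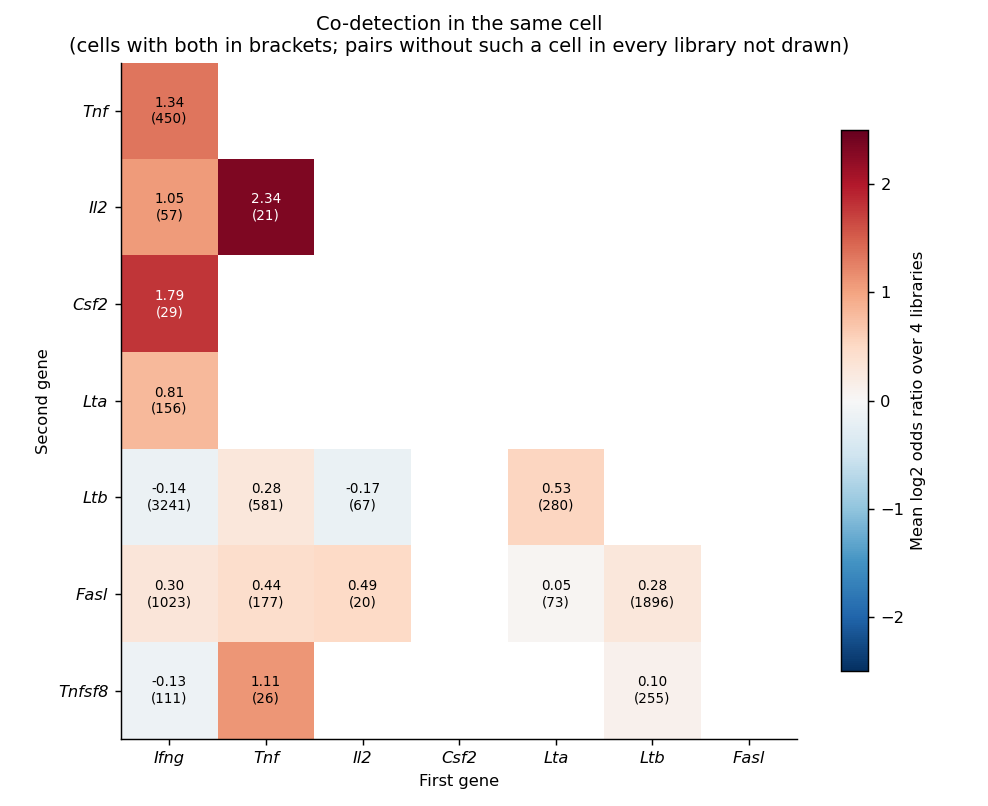
Mean log2 odds ratio, over 4 libraries, of finding both genes of a pair in the same cell thinned to 2000 UMIs, with the number of cells that held both in brackets. Of the 28 pairs, the 17 with a cell of both in every library are drawn. Among these Tnf and Il2 have the highest value (2.34, 21 cells), and Ifng and Ltb lie slightly below 0 (3241 cells).

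Genes most like each of the 8 were ranked by their mean Pearson correlation over cells, among the other 7663 genes detected in 5% or more of the cells of each library; the cells of a library share their depth and preparation, so these are descriptions. Ifng went with the chemokine genes Ccl3 (mean r = 0.59 over 4 libraries) and Ccl4 (0.55), then with the transcription factor gene Irf8 (0.29). The same chemokines led for Tnf, Ccl4 at 0.25 and Ccl3 at 0.25, with Tnfsf14, another TNF family ligand, at 0.24. Il2 was led by Nfkbid, an NF-κB regulator (0.09), Nr4a1 (0.08) and Tnfsf14 (0.08), and Csf2 by Ccl1 (0.10), Xcl1 (0.07) and Tnfrsf4 (0.06); values this low in genes this sparse order the genes only loosely. Lta was nearest to Xcl1 (0.12), Myc (0.10) and Rgcc (0.10), and Tnfsf8 to Xcl1 (0.20), Crtam (0.19) and Tespa1 (0.17). Ltb and Fasl had other neighbours: Cd52 (0.32), Shisa5 (0.31) and Trbc2 (0.30) for Ltb, and Ccl5 (0.22), Tmsb4x (0.20) and Ifngr1, a chain of the interferon-γ receptor (0.16), for Fasl.

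To ask how the 8 genes differed between ranges of cells set by other genes, the cells of each library were ordered by 8 marker scores, none of which holds any of the 8. In each library the 20% of cells with the highest score were summed and compared with the sum of the other cells, over all 4 libraries and all genes, by edgeR's quasi-likelihood test with Benjamini-Hochberg adjustment and library as a term. A gene was called at an adjusted p below 0.05. A score is a range, not a cell type: 2.08% to 8.05% of the cells lay within 0.1 SD of the cut.

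The antigen response score, from 11 genes such as Nr4a1, Egr2, Cd69, Crtam, Ccl3 and Ccl4 that T cells switch on when the receptor is engaged, separated the cytokines most. Of the 8 genes, 7 were higher in its high-score cells and 0 lower, where 21.8% of all 12470 genes tested were called higher and 20.8% lower. Ifng was at 1497, 2435, 1474 and 1654 CPM in the high-score cells of anti-PD-1 replicates 1 to 3 and IgG, and at 167, 166, 136 and 152 CPM in the other cells. The ranges did not overlap, and the high-score cells held 69.9% to 79.1% of all Ifng UMIs. The log2 fold change was 3.56 ± 0.08 (SE; edgeR, adjusted p = 9.69e-12). In thinned cells Ifng was found in 53.6% ± 3.63 of the high-score and 19.1% ± 1.07 of the other cells (SD, n = 4).

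Tnf was at 21.1, 22.6, 94.2 and 71.1 CPM in the high-score cells against 6.01, 6.18, 15.5 and 14.7 CPM, higher in all 4 libraries, with a log2 fold change of 2.36 ± 0.10 (edgeR, adjusted p = 1.43e-09). Il2 was at 4.57, 34.3, 12.1 and 15.4 CPM against 2.61, 3.0, 2.44 and 1.78 CPM, also higher in 4 of 4 libraries (2.75 ± 0.26, edgeR adjusted p = 2.36e-06). Leaving out in each library the cell with the most UMIs of the gene gave 2.20 for Il2, which was still called (adjusted p = 3.78e-06). Csf2 was higher in 3 of 4 libraries, at 4.90 against 0.843 CPM in anti-PD-1 replicate 3 and 11.6 against 1.41 CPM in IgG, but at 0.398 against 0.645 CPM and 0.609 against 0.496 CPM in replicates 1 and 2 (2.47 ± 0.32, edgeR adjusted p = 4.54e-05). DESeq2 gave 1.52 for Csf2, with an adjusted p of 0.124.

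Among the TNF family ligands, Lta was at 9.74, 9.33, 11.7 and 21.0 CPM in the high-score cells against 4.95, 5.14, 7.03 and 13.7 CPM (log2 fold change 0.81 ± 0.07, edgeR adjusted p = 2.14e-06). Tnfsf8 was at 8.25, 7.81, 7.81 and 18.0 CPM against 3.69, 4.62, 4.56 and 12.2 CPM (0.82 ± 0.10, adjusted p = 1.89e-05). Both were higher in 4 of 4 libraries, though in cells with nontargeting guides alone Tnfsf8 was not called (0.37, adjusted p = 0.355). Fasl was at 41.2, 39.9, 105 and 96.9 CPM against 41.3, 43.2, 76.1 and 73.0 CPM. It was higher in anti-PD-1 replicate 3 and IgG and slightly lower in the other pair, and its call (0.32 ± 0.07, edgeR adjusted p = 0.00319) was lost without replicate 3 (0.22, adjusted p = 0.0567). Ltb was not called: it was at 275, 258, 438 and 524 CPM against 302, 301, 469 and 544 CPM, lower in 4 of 4 libraries by a log2 fold change of -0.05 ± 0.02 (edgeR adjusted p = 0.156). It was called lower in thinned (-0.12 ± 0.04) and in nontargeting cells (-0.21 ± 0.06; edgeR, adjusted p = 0.0272 and 0.00991). The high-score cells had 1.02 to 1.08 times the median UMIs of the others.

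Ccl3 and Ccl4, the nearest neighbours of Ifng, are in the antigen response list, so the score was also taken without them, an alternative chosen after the values were seen. Ifng was then 2.30 ± 0.06 higher on the log2 scale, Tnf 2.16, Il2 2.77, Csf2 2.39, Lta 0.82 and Tnfsf8 1.73 (edgeR, adjusted p from 6.02e-11 to 0.000157). Fasl, at 0.11, was no longer called (adjusted p = 0.249).

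**Figure D3:**
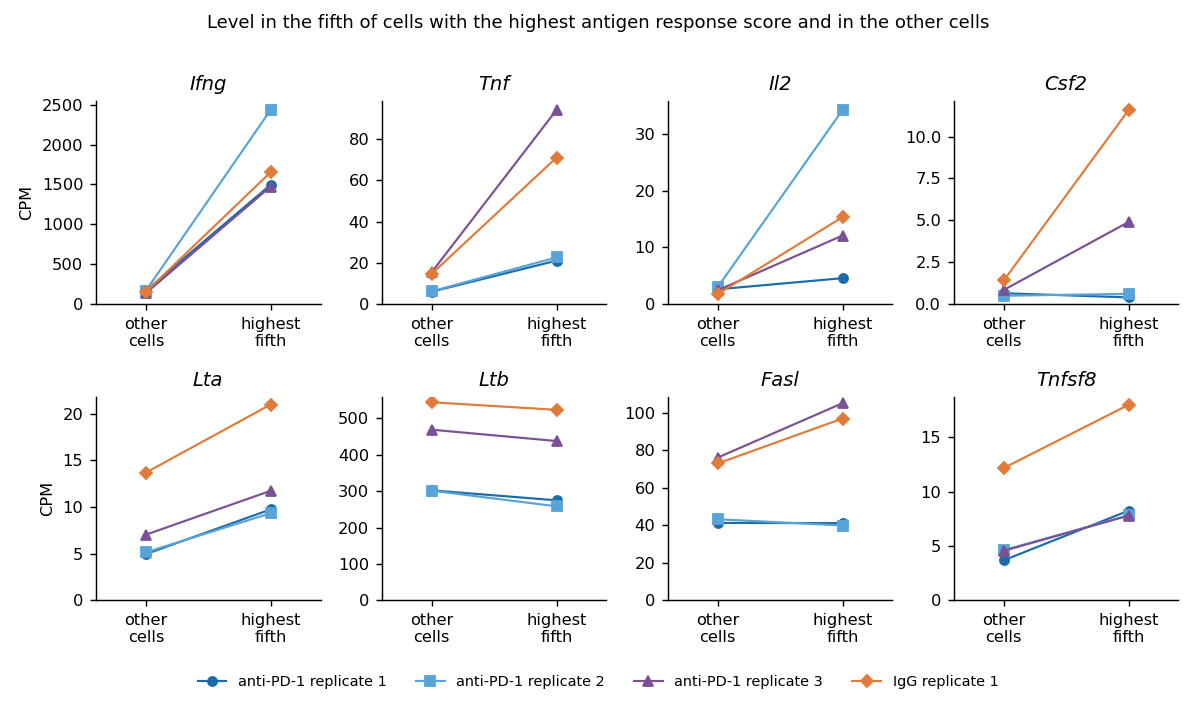
CPM of each gene in the 20% of cells with the highest antigen response score (right of each panel) and in the other cells (left), 1 line per library, each panel with its own axis from 0. The lines of Ifng rise from 136 to 167 CPM to 1474 CPM or more in all 4 libraries, and those of Ltb are nearly level.

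Other genes of the same pathways, from lists that hold none of the 8, were read from the same fit. Their counts stand beside 21.8% of all genes called higher and 20.8% called lower. Of 9 other TNF ligands tested, 5 were higher and 3 lower in the high-score cells, led by Tnfsf14 (log2 fold change 3.07 ± 0.09), Tnfsf9 (1.83 ± 0.09), Tnfsf11 (0.62 ± 0.07) and Cd40lg (3.69 ± 0.49). Of 9 other T cell cytokines, 5 were higher and 1 lower; Il10 (2.60 ± 0.21) and Il21 (3.38 ± 0.37) rose and Il16 (-0.85 ± 0.07) fell. Of 20 signal and transcription factors of T cell activation, 16 were higher and 2 lower, among them Irf8 (1.31 ± 0.03), Rel (1.47 ± 0.04), Irf4 (1.08 ± 0.05) and Nfatc1 (0.60 ± 0.04). Their median log2 fold change was 0.53, against -0.02 over all genes tested.

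The counts of the next 3 lists stand beside 21.8% of all genes called higher and 20.8% called lower. Among 10 receptors for the 8 ligands, 4 were higher, led by Il2ra (1.05 ± 0.08), the high-affinity chain of the interleukin-2 receptor, and 2 lower, including Ifngr1 (-0.42 ± 0.04). Of 11 genes of messenger RNA turnover, which include proteins that degrade cytokine transcripts, 6 were higher and 3 lower, with Zfp36l1 (1.36 ± 0.08) and Zc3h12a, which encodes Regnase-1 (0.57 ± 0.08), among the higher. Of 11 feedback inhibitors, 7 were higher and 1 lower, led by Nfkbid (2.21 ± 0.14) and Nfkbia (0.53 ± 0.05). All of these calls are by edgeR at adjusted p from 1.35e-12 to 0.000110 for the genes named.

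The precursor exhausted score, from Tcf7, Slamf6, Lef1, Id3, Il7r, Ccr7, Cxcr5 and Bcl6, which mark the stem-like pool that sustains exhausted responses, gave a different order. Of the 8 genes, 3 were higher and 2 lower, where 16.4% of 12544 genes were called higher and 18.1% lower. Tnfsf8 was at 12.3, 12.5, 12.5 and 25.7 CPM in the high-score cells against 2.98, 3.73, 3.61 and 10.4 CPM in the others, higher in all 4 libraries (log2 fold change 1.61 ± 0.10, edgeR adjusted p = 3.68e-09). These cells, 20% of the total, held 38.2% to 46.9% of its UMIs. Ltb was at 370, 343, 530 and 634 CPM against 281, 282, 447 and 516 CPM (0.29 ± 0.03, edgeR adjusted p = 5.82e-07). Csf2 was called higher (1.36 ± 0.28), but not without the IgG library (0.60, adjusted p = 0.186) or in thinned cells (0.03, adjusted p = 0.984).

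Ifng went the other way: it was at 436, 307, 245 and 290 CPM in these cells against 442, 699, 456 and 516 CPM, lower in 4 of 4 libraries though nearly equal in anti-PD-1 replicate 1 (-0.75 ± 0.11, edgeR adjusted p = 5.04e-05). Fasl was also lower (-0.25 ± 0.06, edgeR adjusted p = 0.00180), and with thinned cells the call was lost (-0.09, adjusted p = 0.557). Tnf, at -0.16 ± 0.07, was not called. Of the 9 other TNF ligands tested, 5 were higher in these cells and 0 lower, led by Cd70 (1.30 ± 0.09), Tnfsf4 (1.38 ± 0.14), Tnfsf14 (0.62 ± 0.07) and Tnfsf11 (0.43 ± 0.06).

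In the cells with the highest exhausted score (Pdcd1, Havcr2, Lag3, Tigit, Entpd1, Tox, Nr4a2 and others), 3 genes were higher and 1 lower, against 22.2% of all genes in each direction. Fasl was at 62.7, 63.5, 120 and 112 CPM against 36.7, 38.1, 73.9 and 70.7 CPM, and the log2 fold change of 0.68 ± 0.04 (edgeR adjusted p = 7.00e-09) came with folds of 1.58 to 1.71 in the 4 libraries. Ltb (0.39 ± 0.03) and Tnf (0.43 ± 0.06) were also higher, in 4 of 4 libraries each. Lta was lower (-0.48 ± 0.10, edgeR adjusted p = 0.00127). In nontargeting cells Fasl and Ltb were called, and Tnf (0.48 ± 0.16) and Lta (-0.78 ± 0.30) were not (edgeR, adjusted p = 0.0523 and 0.0898). Lta was not called in thinned cells either (-0.37 ± 0.18), while Ifng (0.37 ± 0.07, adjusted p = 7.28e-05) and Il2 were. Ifng, at 418, 486, 629 and 628 CPM against 446, 661, 371 and 437 CPM, was lower in anti-PD-1 replicates 1 and 2 and higher in the other pair, and was not called (0.17 ± 0.13, adjusted p = 0.321). The scores are not independent. Cells with high exhausted scores had a median antigen response score of 1.31 against 0.879 in the others (mean over libraries). For the precursor exhausted score it was 0.786 against 0.996. The part of antigen response in these differences was not tested.

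The effector memory and egress score, led by Klf2 and S1pr1, had 2 genes higher and 2 lower, against 15.4% and 15.2% of all genes. Ltb (0.31 ± 0.03) and Fasl (0.26 ± 0.07) were higher and Ifng lower, at 250, 315, 313 and 385 CPM against 481, 694, 440 and 490 CPM (-0.74 ± 0.10, edgeR adjusted p = 0.000385). Il2 was also called lower (-0.40 ± 0.13, adjusted p = 0.0417); without the cell with the most Il2 UMIs in each library, the difference was 0.00. In thinned cells the Ifng call alone held (-0.44 ± 0.05), and Ltb (0.07 ± 0.04), Fasl (0.09 ± 0.07) and Il2 (-0.21 ± 0.28) were not called (edgeR, adjusted p = 0.261, 0.507 and 0.746). In nontargeting cells Ifng and Ltb were called and Fasl (0.25 ± 0.11) and Il2 (-0.79 ± 0.47) were not. The median antigen response score was also lower in the high-score cells, 0.756 against 0.997 (mean over libraries).

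Cells with high cell cycle scores had lower CPM of most of the 8 genes. For the G1/S score 6 genes were lower and 0 higher, against 25.7% and 24.2% of all genes, and for the G2/M score 7 were lower and 0 higher, against 24.7% and 23.0%. Tnfsf8 had the largest differences in both, at 1.62, 1.26, 1.47 and 7.47 CPM against 5.58, 6.58, 6.62 and 15.6 CPM for G1/S (-1.54 ± 0.17, edgeR adjusted p = 2.82e-05). Its G2/M difference was -1.33 ± 0.10 (adjusted p = 1.28e-06). Ifng was at -0.95 ± 0.12 with G1/S and -0.83 ± 0.15 with G2/M, and Ltb at -0.48 ± 0.04 and -0.35 ± 0.04. The cells with high G1/S scores had 1.36 to 1.54 times the median UMIs of the others and those with high G2/M scores 1.55 to 1.61 times, and the part of this in the lower CPM was not tested.

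The calls for the interferon response and hypoxia scores were fewer or absent in some alternatives. With interferon response, Tnf (0.29 ± 0.07) and Ltb (0.19 ± 0.02) were higher and Ifng lower (-0.36 ± 0.06), against 5.65% of genes called higher and 5.37% lower; none of the 8 was called in thinned cells. None of the 3 was called in nontargeting cells, and Ifng was in the opposite direction in both, at 0.27 ± 0.16 and, thinned, 0.04 ± 0.04. With hypoxia, Ifng (0.24 ± 0.09) and Ltb (0.17 ± 0.03) were higher and Tnf, Il2, Csf2 and Tnfsf8 lower, against 18.1% and 18.5%. Csf2 had the largest of these, -1.95 ± 0.30, and Tnfsf8 was at -1.02 ± 0.15 (edgeR, adjusted p = 0.000124 and 0.000113). In the cells with nontargeting guides alone, 0 of the 8 were called for hypoxia, and in thinned cells the calls of Ifng (0.22 ± 0.05) and Ltb (0.14 ± 0.04) alone held. Il2, lower by -0.91 ± 0.16 over all cells, was at 0.12 ± 0.36 and 0.32 ± 0.28 in these, the opposite direction.

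**Figure D4:**
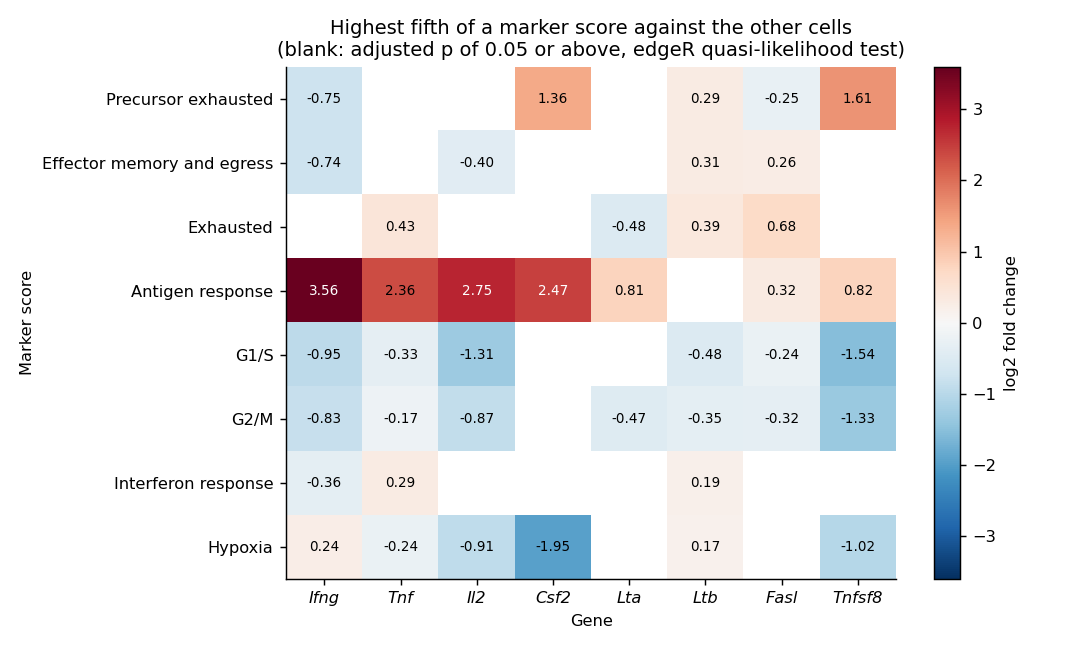
Log2 fold change of each gene between the 20% of cells with the highest value of a marker score and the other cells, over 4 libraries, printed where the adjusted p was below 0.05 (edgeR quasi-likelihood test). The antigen response row holds the highest values (3.56 for Ifng), and the G1/S and G2/M rows hold only negative ones.

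Clusters of cells were then drawn without the 8 genes among the 2000 clustering features, after integration over the 4 libraries, where the study integrated over batches with an earlier Seurat, and are described with no test, since genes that vary with the 8 stayed in. Of 8 clusters, 5 could be named from their markers. Ifng was highest in an unnamed cluster of 3514 cells led by Xcl1, with Crtam, Rgcc, Ccl3 and Ccl4 near the top, at 1264, 2051, 1296 and 1587 CPM. With 15.2% of the cells it held 50.7% of the Ifng UMIs, and 60.9% to 88.0% of the 1% of cells with the most Ifng. The cytotoxic-like cluster came next, at 369 ± 28.5 CPM (SD, n = 4), with no overlap with the Xcl1-led cluster above it or a Hist1h1b-led cluster (265 ± 32.9 CPM) below it, and the precursor exhausted-like (122 ± 18.5) and effector memory and egress-like (79.9 ± 37.7) clusters were lowest. These last 2 overlapped in range, and no cell of the top 1% for Ifng was in the precursor exhausted-like cluster.

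By its mean over libraries the Xcl1-led cluster was also the highest for Tnf (2.06 ± 0.33 times the level of all cells of the library), Il2 (3.35 ± 1.63 times), Csf2 (2.57 ± 1.29 times) and Lta (1.54 ± 0.20 times). For Il2 it was level with the precursor exhausted-like cluster in anti-PD-1 replicate 1, at 3.30 CPM in both, and its 34.6 CPM in replicate 2 came from a library in which 1 cell held 175 of the Il2 UMIs. For Csf2 it was at 0.455 CPM in anti-PD-1 replicate 1, below 3 other clusters, and for Lta at 8.51 CPM in replicate 2, below the 14.8 CPM of the G2/M-like cluster. By the share of thinned cells with a UMI, Lta had its highest mean in the precursor exhausted-like cluster instead. Csf2 was nearly level by this share, at 0.345% ± 0.424 in the precursor exhausted-like and 0.343% ± 0.360 in the Xcl1-led cluster. The Xcl1-led cluster was low for Ltb, at 269 ± 116 CPM against 556 ± 198 in the precursor exhausted-like cluster, with ranges that overlapped. Tnfsf8 was highest in that last cluster, at 24.1, 30.8, 29.8 and 47.6 CPM, 5.07 ± 1.05 times the level of all cells, and second among clusters found in every library in the Xcl1-led cluster (15.3 ± 9.89 CPM). Together these clusters held 27.5% and 32.2% of its UMIs. Among clusters found in every library, Fasl had its highest mean in the cytotoxic-like cluster (81.5 ± 31.4 CPM) and its lowest in the precursor exhausted-like cluster (33.9 ± 14.6 CPM). Ranges of neighbouring clusters overlapped, and in anti-PD-1 replicate 1 the cytotoxic-like cluster, at 50.7 CPM, was below the 57.4 CPM of the effector memory and egress-like cluster. At the finer resolution of 0.5, the highest means of Ltb and Fasl lay in a different cluster of 330 cells, described last. A cluster of 328 cells led by Gm42418 and an interferon response-like cluster of 118 cells had 20 or more cells in only 2 libraries and enter no ranking here.

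**Figure D5:**
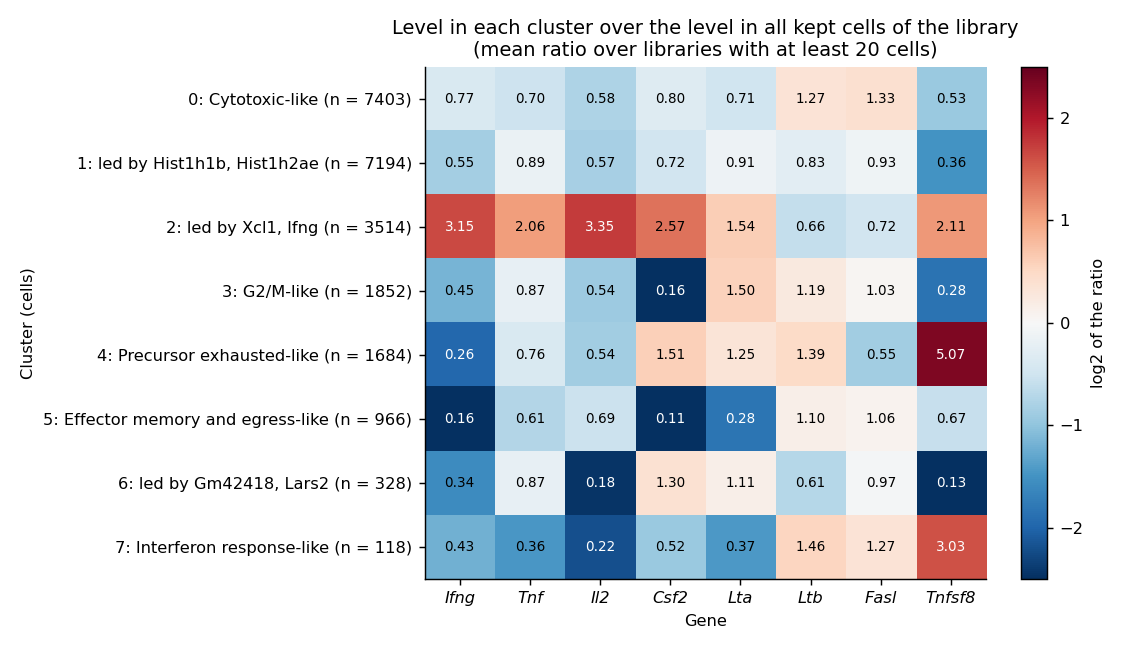
CPM of each gene in a cluster over its CPM in all kept cells of the same library, as the mean over libraries with at least 20 cells of the cluster; the colour is the log2 of that ratio. The Xcl1-led cluster holds the highest ratio of Ifng (3.15) and the precursor exhausted-like cluster that of Tnfsf8 (5.07).

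Whether anti-PD-1 changed the 8 genes was tested on the sums of all kept cells, 3 anti-PD-1 libraries against 1 IgG library, whose spread had to be taken as that of the others. None of the 8 was called, and 0 of 13810 genes were (0.00%; 282, or 2.04%, had an unadjusted p below 0.05, edgeR's quasi-likelihood test). The anti-PD-1 libraries had a mean Ifng level of 496 ± 117 CPM (SD, n = 3) and the IgG library 471 CPM, a log2 fold change of 0.09 ± 0.27 (SE, edgeR adjusted p = 0.993). Tnf (-0.64 ± 0.72), Il2 (0.29 ± 0.63) and Fasl (-0.49 ± 0.40) had errors as large as the difference or nearly so, and Csf2 was at -1.88 ± 0.63 and Ltb at -0.61 ± 0.27.

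The IgG library was above all 3 anti-PD-1 libraries for Tnfsf8, Lta, Csf2 and Ltb, 4 of the 8, where 22.9% of all genes showed that order, and below all 3 for 0 of the 8, against 23.1%. Tnfsf8 was at 5.05 ± 0.362 CPM under anti-PD-1 and 13.4 under IgG (log2 fold change -1.40 ± 0.15, edgeR unadjusted p = 0.000172, adjusted p = 0.987), and Lta at 6.65 ± 1.18 and 15.2 CPM (-1.18 ± 0.20). In thinned cells Tnfsf8 was found in 1.01% to 1.35% of anti-PD-1 and 2.66% of IgG cells. DESeq2 called 5 of 20089 genes (0.0249%), Tnfsf8 among them (adjusted p = 0.000227), but not Lta (adjusted p = 0.0661).

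How the anti-PD-1 libraries differ among themselves bears on this. With a term for the 2 that share a title, which leaves replicate 3 against IgG with the gap between replicates 1 and 2 as the only spread, 283 genes were called (2.05%), and Tnfsf8 (-1.36 ± 0.14), Lta (-0.93 ± 0.13) and Csf2 (-1.08 ± 0.26) were among them. Tnf, Fasl, Ifng and Il2 then had differences of 0.26, 0.07, -0.18 and -0.06, in the opposite direction to those without the term, and were not called. Without replicate 3, 24.9% of genes and 7 of the 8 were called, all but Ifng, and the spread again came from that pair alone. The errors and calls of both fits thus measure that gap, and the labels do not say whether those libraries came from separate mice. The fit with the term for the shared title set replicates 1 and 2 below replicate 3 for Tnf (-1.75 ± 0.10), Csf2 (-1.58 ± 0.27), Fasl (-0.95 ± 0.10), Ltb (-0.63 ± 0.12) and Lta (-0.40 ± 0.12), where 27.6% of all genes were called. The 7 B or plasma cell markers, of which 5 had a UMI in each of these libraries, summed to 62.9, 55.6 and 196 CPM in replicates 1 to 3, while Cd79a, a chain of the B cell receptor complex, was at 0.0609, 0.0425 and 0.146 CPM. Their part in the Ltb difference between these libraries was not tested. Between treatments Ltb was at -0.61 ± 0.27 both with all kept cells and without those with 10 or more UMIs of other types' markers. The methods of the study speak of batches, but no label says which library was in which. The treatment and the library cannot be told apart with 1 IgG library.

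Last, 82 knockout targets with at least 10 cells in a library were compared with nontargeting guides in the 3 anti-PD-1 libraries, by edgeR with library as a term. Of 656 pairs of a target and 1 of the 8 genes, 5 were called, all higher, where 0.05% of all 772358 pairs of target and gene were called, and 38 had an unadjusted p below 0.05. Each of the 5 rested on 1 cell. Il2 in Cops8-targeted cells had 0, 176 and 1 UMIs in anti-PD-1 replicates 1 to 3, and 175 of the 176 were in a single cell (log2 fold change 5.70 ± 0.59, edgeR adjusted p = 6.97e-14). Of all genes, 0.0425% were called for Cops8. Il2 with Mtm1 had 3, 60 and 3 UMIs, 55 of them in 1 cell, and Il2 with Pla2g4b had 1, 1 and 62, 60 of them in 1 cell, with 0.0212% and 0.0531% of all genes called.

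Tnf in Slc9a8-targeted cells had 5, 6 and 168 UMIs, 152 of these in 1 cell (2.32 ± 0.34, edgeR adjusted p = 2.62e-06), and Csf2 in Mdh2-targeted cells 0, 1 and 24, all 24 in 1 cell, with 0.0425% and 0.117% of all genes called. In the IgG library, which the fit left out, the same 5 pairs had 2, 2, 0, 24 and 3 UMIs, with no more than 6 in any cell. Ifng, Lta, Ltb, Fasl and Tnfsf8 were called for 0 of 82 targets each, with 2, 5, 3, 3 and 8 unadjusted p below 0.05. The steadiest of the 8 was Ltb, whose log2 fold changes ran from -0.49 to 0.45 with a median SE of 0.18, so that shifts within this range could not be told from 0 for most targets, whereas Ifng ran from -3.85 to 2.03 with a median SE of 0.68. In Elovl1-targeted cells, named because the study followed this lipid elongase further, Ifng was at 1703, 397 and 168 CPM and 257 CPM in IgG, against 526, 503, 506 and 469 CPM with nontargeting guides; 1 cell held 1078 of the 1599 UMIs behind the first value, and the difference of 0.60 ± 0.64 was not called (edgeR adjusted p = 1.0).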

How the data were processed

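The authors deposited raw UMI counts per gene and guide and cell barcode, from 10x 3′ libraries with feature barcoding; Cell Ranger 3.1.0, R 3.6.3, Seurat and the mm10 genome are named in the submitters' processing notes. The sources used here do not give how strand was counted. Kept cells had a single guide, log10 UMIs no more than 3 scaled median absolute deviations from the median of single-guide barcodes and at most 10% mitochondrial UMIs; barcodes with more than 1 guide were left out as possible doublets, and no doublet caller was run. The kept cells of a library held 48182760 to 88543446 UMIs. All columns of counts were mapped to a sample.

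The members and gene lists were chosen with earlier results of these data known. Counts were summed per library, per library and score range, or per library and target (at least 10 cells), then tested with edgeR 4.0.16 (quasi-likelihood, filterByExpr, TMM, Benjamini-Hochberg over all genes tested) in R 4.3.3, with library as a term except between treatments; the scripts were tested on simulated data. A score is the mean log2(counts per 10000 + 1) of its genes, cut within each library. Clusters came from Seurat 5.3.0 (2000 features, 15 components, resolution 0.3, UMIs, mitochondrial share and cell cycle difference regressed out, integrated over the 4 libraries, where the study integrated over batches). Odds ratios had 0.5 added to each count. Python 3.11.15 with SciPy 1.17.1 gave levels and exact binomial intervals, which cover counting error only. A count of 0 allows a share of cells of up to 3 counts, 0.0261% to 0.118% between libraries.

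All 8 genes are named; the genes most like each are the 3 with the highest mean correlation, and from each pathway list at most 4 called genes with the smallest p. Alternatives were RLE size factors, no filter on low counts, DESeq2 1.42.0, the highest 10% of cells, cells with nontargeting guides only, thinned cells, all barcodes in range, no cells with 10 or more UMIs of other cell types' markers, other thinning depths, other resolutions, at least 20 cells per target and leaving out each library. Leaving out the cell with the most UMIs of a gene, the list without Ccl3 and Ccl4, and the Egr3-led cluster at resolution 0.5 were chosen after seeing the data.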

Additional observations from a re-analysis of the deposited data

How the results depend on the processing

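The antigen response count of 7 genes and the G1/S and G2/M counts of 6 and 7 stayed within 1.5 times under every alternative run. Between treatments, 0 of the 8 genes were called, but 1 with DESeq2, 3 with the term for the shared title and 0 to 7 when each anti-PD-1 library was left out, the 7 without replicate 3. With nontargeting cells alone the counts were 3 against 5 for precursor exhausted, 2 against 4 for effector memory and egress, 2 against 4 for exhausted, 1 against 3 for interferon response and 0 against 6 for hypoxia, and with thinned cells 3, 1, 5, 0 and 2. With no filter on low counts, exhausted gave 7 and interferon response 6, which also gave 6 in the highest 10% of cells and 5 without the cell with the most UMIs. Leaving out each library gave 2 to 4 for effector memory and egress (2 without anti-PD-1 replicate 1) and 2 to 5 for interferon response (5 without replicate 1 or replicate 2). The 5 target calls became 2 to 3 (3 without replicate 1 or replicate 2, 2 without replicate 3). The 5 genes highest in the Xcl1-led cluster became 2 at resolution 0.5 and 3 by the share of thinned cells, where Csf2 was nearly level with the precursor exhausted-like cluster. At resolution 0.5 the highest means of Tnf, Il2, Csf2, Ltb and Fasl were in the Egr3-led cluster. Of the 17 pairs, 9 were above 0 in all 4 libraries, 5 at 1000 UMIs and 4 in nontargeting cells, of which 3 were among the 9. Both of these counts include pairs with 0 cells of both in some libraries, such as Tnf with Il2. There the 0.5 added to each count can by itself put the value above 0.

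Signs of tested differences turned as follows, none of them past the threshold. Between treatments, Ifng was at -0.18, Tnf at 0.26, Il2 at -0.063 and Fasl at 0.072 with the title term. Ifng was at -0.10 over all barcodes in range and Il2 at -0.81 in nontargeting cells, and leaving out each library gave -0.14 (without replicate 2) to 0.21 for Ifng and -0.31 (without replicate 2) to 0.60 for Il2. Il2 was at 0.0036 for effector memory and egress without the cell with the most UMIs, and at 0.12 in nontargeting and 0.32 in thinned cells for hypoxia. Ifng was at -0.021 (without replicate 3) to 0.39 for exhausted when each library was left out, and at 0.27 in nontargeting and 0.044 in thinned cells for interferon response. Il2 with Cops8 was at -0.35 with at least 20 cells and from -0.99 to 6.41 when each library was left out, the lowest without replicate 2, the library of the single cell behind that call. Mean log2 odds ratios, which carry no test, turned as well. At 1000 UMIs, for instance, Tnf with Ltb was at -0.03 and Tnf with Fasl at -0.60, against 0.28 and 0.44 at 2000 UMIs. The causes of the other turns were not tested.

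No paired analysis was possible because replicate numbers were given in accession order and 1 IgG library stands against 3. DESeq2 was not run for targets, and the target alternatives were run for the 5 called pairs with the dispersion trend carried over. Csf2 and Il2 were each found in under 1% of thinned cells in every library.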

Other observations

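At the finer clustering resolution of 0.5, 330 cells formed a cluster led by Egr3, Nr4a1, Tnfsf14 and Nfkbid, with Tnf itself among its leading genes; it was picked out after its values were seen and carries no test. Tnf was at 66.5, 26.5, 239 and 232 CPM in these cells in anti-PD-1 replicates 1 to 3 and IgG, against 9.11, 9.55, 32.0 and 26.7 CPM in all kept cells. They were 0.974% to 2.12% of the cells of a library and held 4.13% to 10.3% of its Tnf UMIs. At this resolution the cluster also had the highest mean CPM of Il2, Csf2, Ltb and Fasl among clusters found in every library. Ltb was at 1.49 ± 0.07 times the level of all cells of the library (SD, lowest 1.43). Fasl was at 1.85 ± 0.24 times (lowest 1.54). Of the 330 cells, 255 came from the Xcl1-led cluster and 63 from the cytotoxic-like cluster, and their median UMIs were 0.711 times those of their library.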
